A study of Mus musculus with 6 samples.

Results

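Receptors for the monoamines and for acetylcholine were examined as 1 set of 43 protein-coding genes, taken from the 24935 genes of the table by name alone. The set held 13 serotonin receptor genes (Htr), 5 dopamine receptor genes (Drd), 6 alpha-adrenergic (Adra) and 3 beta-adrenergic genes (Adrb), 5 muscarinic genes (Chrm) and 11 nicotinic subunit genes (Chrna, Chrnb). The RNA came from the left hippocampus of C57BL/6 mice at postnatal day 14 (P14). Mice of the hyperoxia group (3 libraries) had been kept with their dams in 85% oxygen at normal pressure from P2 to P14, and mice of the air group (3 libraries) in ambient air with their dams over the same days. The groups shared strain, age and tissue, and an action of oxygen on the pup cannot be told apart from one through the dam. Pups of both sexes were used, and by Xist and the Y-linked genes 1 of the 3 libraries of each group had the female pattern. Every direction below follows the group named in the deposited columns, and no value in the table gives an independent check of which mice breathed oxygen. The signs that the study prints for gene expression run, for many genes, opposite to hyperoxia minus air in these columns. Which sign holds was not settled here, and an exchange of the group names would turn every direction.

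Serotonin, dopamine and noradrenaline reach the hippocampus along axons from the brainstem and midbrain, and acetylcholine along axons from the medial septum and from few local neurons. Most of their receptors are coupled to G proteins. Those coupled to Gs raise cyclic AMP, those coupled to Gi lower it and open potassium channels, and those coupled to Gq act through phospholipase C. The nicotinic receptors and the serotonin receptor built from Htr3a are ion channels opened by the transmitter itself. In the hippocampus these systems are known for setting the excitability of pyramidal cells and interneurons and for modulating memory formation.

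The values are normalized counts, that is, reads on a gene divided by 1 size factor per library. Libraries held 30384052 to 38746972 reads on genes. Differences are hyperoxia minus air on the scale of log2(normalized count + 1), tested with limma, and a call needs an adjusted p under 0.05 after adjustment over all 17778 genes tested. Of the 43 receptor genes, 40 had a mean of at least 10 and were tested. The other 3 were Adra2b, with normalized counts of 1.88 to 17.0, Drd3, with 0.942 to 6.76, and Htr2b, with 2.83 to 7.12.

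Transcripts of 18 of the 40 receptor genes tested were called, 45% against 30.5% of all genes tested and 32.5% of the protein-coding ones. Hyperoxia-exposed mice had higher levels of 11 (27.5%, against 14.9% of all genes) and lower levels of 7 (17.5%, against 15.6%). The 11 higher were Adra1a, Adra1b, Adrb3, Chrm2, Chrm5, Chrna4, Drd1, Htr2a, Htr2c, Htr5a and Htr7. The 7 lower were Adra1d, Chrm1, Chrna2, Drd5, Htr1a, Htr3a and Htr4. The median log2 fold change was 0.16 over the 40 and −0.01 over all genes tested, and the range over the 40 ran from −0.93 (Chrna2) to 1.64 (Chrm5). In all 18 called genes the groups did not overlap, which a call with 3 libraries per group nearly implies. Over all genes tested, the groups did not overlap in 8197, of which 2834 were not called, and 5425 genes were called. Among all 40 receptor genes the groups did not overlap in 23 (background 46.1%), with hyperoxia above in 12 (background 22.3%) and below in 11 (background 23.8%). On the recovered reads, edgeR called 18 of the 40 (background 30.9%) and DESeq2 19 (background 31.6%). Without air library 2 the higher count was 7, and the lower count was 4 without air library 1, 3 without hyperoxia library 1 and 2 without air library 2 or without air library 3. In whole tissue, fewer cells of a type and less RNA per cell cannot be told apart.

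**Figure D1:**
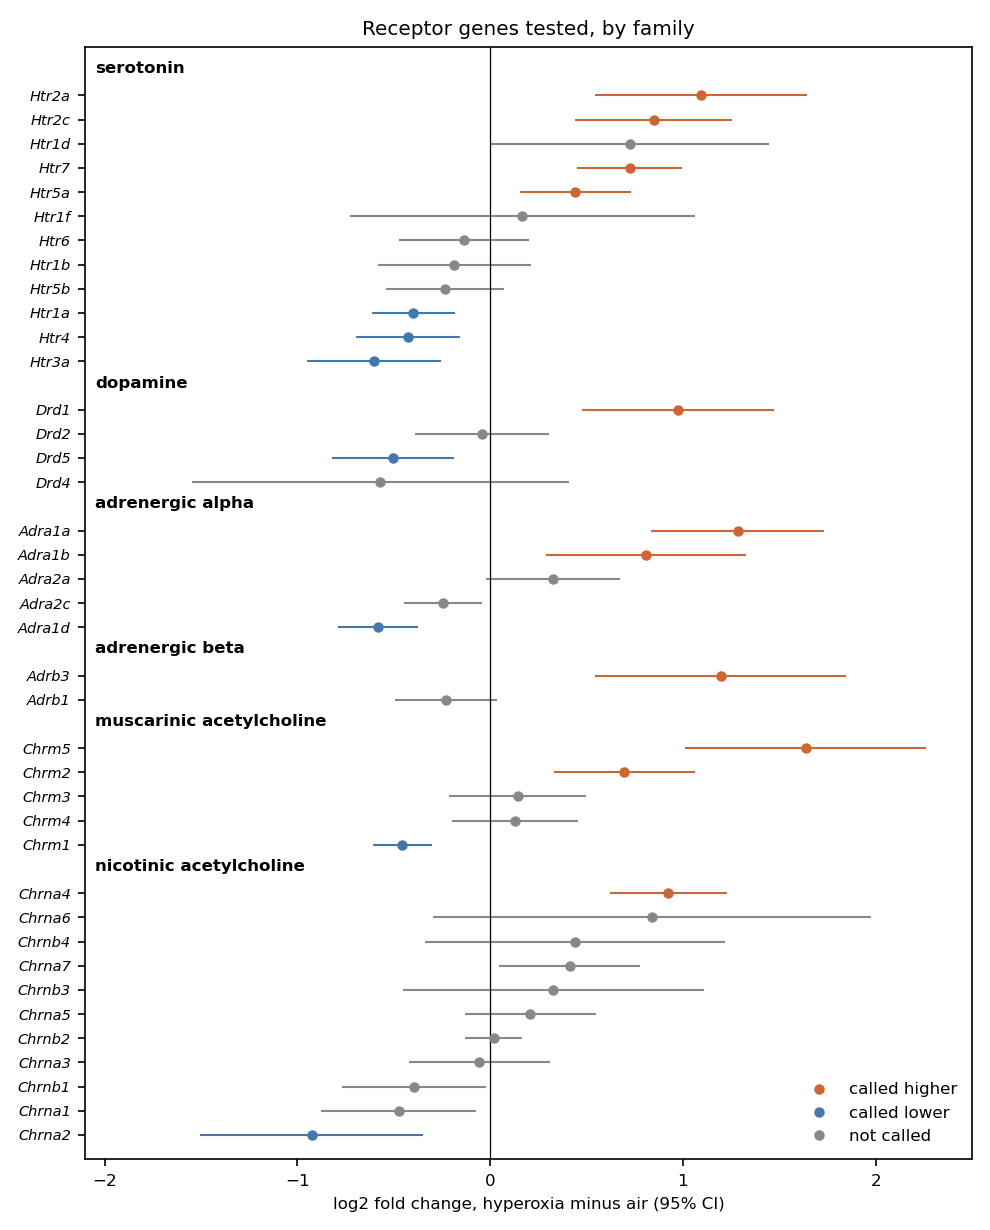
Log2 fold change (hyperoxia minus air, x axis) with its 95% confidence interval for 39 of the 40 receptor genes tested, grouped by family (y axis). The 11 genes called higher and the 7 called lower are coloured, and every family except the beta-adrenergic one holds called genes on both sides of 0.

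Promoter sequence is shown for the called genes with the smallest adjusted p in each direction that had an entry in the reference table, so that the start regions of genes that moved apart can be read side by side. They are Chrna4 and Htr7, which were higher in hyperoxia, and Htr1a and Drd5, which were lower. Each window holds 250 bases before and 50 after the RefSeq transcription start on GRCm38, read 5′ to 3′ on the strand of the gene. Capitals mark the GC box letters GGGCGG and the core letters of the hypoxia response element, ACGTG, on either strand.
Chrna4 (chr2:181039128-181039427, minus strand): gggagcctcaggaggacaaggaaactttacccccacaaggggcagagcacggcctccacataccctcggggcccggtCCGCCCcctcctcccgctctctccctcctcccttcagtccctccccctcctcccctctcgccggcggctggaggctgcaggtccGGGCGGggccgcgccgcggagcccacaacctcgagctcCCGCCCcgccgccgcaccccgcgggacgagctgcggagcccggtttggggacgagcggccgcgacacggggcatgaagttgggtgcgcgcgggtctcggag
Htr7 (chr19:36057311-36057610, minus strand): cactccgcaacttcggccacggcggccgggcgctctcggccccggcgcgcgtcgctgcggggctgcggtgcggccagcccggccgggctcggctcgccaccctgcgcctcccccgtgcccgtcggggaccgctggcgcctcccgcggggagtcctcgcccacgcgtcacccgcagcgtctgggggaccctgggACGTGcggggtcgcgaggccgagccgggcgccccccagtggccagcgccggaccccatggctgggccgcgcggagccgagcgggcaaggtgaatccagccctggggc
Htr1a (chr13:105443443-105443742, plus strand): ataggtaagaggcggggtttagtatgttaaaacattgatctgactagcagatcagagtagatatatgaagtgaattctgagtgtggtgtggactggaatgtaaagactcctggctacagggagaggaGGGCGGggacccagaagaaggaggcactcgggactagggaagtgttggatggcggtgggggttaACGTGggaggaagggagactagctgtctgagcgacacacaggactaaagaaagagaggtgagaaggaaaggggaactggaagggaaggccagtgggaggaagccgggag
Drd5 (chr5:38319259-38319558, plus strand): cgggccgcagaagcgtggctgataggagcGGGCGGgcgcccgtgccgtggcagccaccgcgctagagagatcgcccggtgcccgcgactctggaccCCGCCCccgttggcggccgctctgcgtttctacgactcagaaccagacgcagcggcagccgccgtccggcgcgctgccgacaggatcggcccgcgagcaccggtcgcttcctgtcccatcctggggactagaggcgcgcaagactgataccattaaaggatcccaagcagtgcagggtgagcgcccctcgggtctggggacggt
The GC box letters stood at 3 places in the Chrna4 window, at 2 in that of Drd5, at 1 in that of Htr1a and at none in that of Htr7. The hypoxia response element core stood at 1 place each in the windows of Htr7 and Htr1a. Across 32851 windows of 300 bases, 35.7% held the GC box letters and 19.6% the core. The GC content was 74.3% for Chrna4, 81.0% for Htr7, 52.3% for Htr1a and 70.3% for Drd5. No TATA box letters (TATAAA, 13.6% of all windows) and no TGACGTCA (the cyclic AMP response element, 1.79% of all windows) were found in these 4 windows on either strand. The ACGTG core lies inside neither the GC box nor the TATA letters. A match in these letters describes the window and is no evidence of binding. Of the 43 genes, 32 had a window in the table. Of the 18 called genes, 11 had one (9 higher and 2 lower), and Adra1a, Adra1d, Adrb3, Chrm1, Chrna2, Htr3a and Htr4 had none.

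Of the 12 serotonin receptor genes tested, 4 rose, 3 fell and 5 were not called (58.3% called, against 30.5% of all genes tested). Htr2c (ENSMUSG00000041380.13, chrX:146962513-147197277, plus strand), a Gq-coupled receptor with known high levels in choroid plexus and in some neurons, had normalized counts of 908, 553 and 772 in air and 1446, 1471 and 1064 in hyperoxia. All hyperoxia libraries lay above all air libraries, at 744 ± 179 in air and 1327 ± 228 in hyperoxia (SD, n = 3), a 1.78-fold higher mean (log2 fold change 0.85, standard error 0.18, limma adjusted p = 0.0078). Of the 12 choroid plexus marker genes, 2 also had all hyperoxia libraries above air, against 22.3% of all genes tested. These were Aqp1, a water channel, and Kcnj13, a potassium channel named after its values were seen. The groups of the other 10 overlapped. Aqp1 had 17.0, 14.2 and 12.3 in air and 45.1, 34.0 and 63.7 in hyperoxia (log2 fold change 1.61, adjusted p = 0.0036 by limma). Kcnj13, whose mean was under the filter, had 6.59, 3.05 and 7.19 in air and 15.9, 12.5 and 13.5 in hyperoxia. Ttr, the transthyretin gene of that tissue, had 272, 167 and 887 in air and 350.0, 183 and 7454 in hyperoxia, and the summed list, most of it Ttr and Enpp2, was 16136 in hyperoxia library 3, where Htr2c was lowest of the group, against 4167 and 4513 in the other two. The part of choroid plexus RNA in the Htr2c values was not tested. Htr2a (ENSMUSG00000034997.4, chr14:74640840-74709494, plus strand), the Gq-coupled receptor through which classical psychedelics act, had 61.2, 38.7 and 49.3 in air and 120.2, 75.9 and 128 in hyperoxia. It rested on 38 to 136 reads per library, with no overlap between groups and the smallest rise in hyperoxia library 2 (log2 fold change 1.09, standard error 0.24, limma adjusted p = 0.0094).

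Htr7 (ENSMUSG00000024798.15, chr19:35958734-36057507, minus strand), coupled to Gs, had 216, 211 and 218 in air and 368, 402 and 303 in hyperoxia. The air libraries lay within a narrow band and every hyperoxia library was above it (log2 fold change 0.72, standard error 0.12, limma adjusted p = 0.0028). Htr5a (ENSMUSG00000039106.6, chr5:27842149-27855088, plus strand), coupled to Gi, rose less, with 432, 339 and 373 in air and 602, 496 and 459 in hyperoxia, and air library 1 came close to hyperoxia library 3 (log2 fold change 0.44, standard error 0.13, limma adjusted p = 0.029). It was no longer called when air library 2 (adjusted p = 0.12), air library 3 (0.086) or hyperoxia library 1 (0.11) was left out, nor without the mean-variance trend (0.069), nor when values were corrected for transcript length and GC content (0.10).

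The 3 serotonin receptor genes that fell included the most abundant one per length. Htr1a (ENSMUSG00000021721.4, chr13:105443639-105448122, plus strand), the Gi-coupled receptor that opens potassium channels in pyramidal cells and also serves as the autoreceptor of serotonin neurons, had 1236, 1349 and 1319 in air and 1129.7, 915 and 929 in hyperoxia. Its mean fell from 290.2 to 221 normalized counts per kilobase (kb) of exon (log2 fold change −0.40, standard error 0.10, limma adjusted p = 0.013), and hyperoxia library 1 was the nearest to air. Htr3a (ENSMUSG00000032269.8, chr9:48899213-48911099, minus strand), the ion channel subunit known from a class of interneurons, had 414, 471 and 456 in air and 261, 384 and 253 in hyperoxia. Hyperoxia library 2 was nearer to the air libraries than to the other two of its group (log2 fold change −0.60, standard error 0.16, limma adjusted p = 0.017). Htr4 (chromosome 18, 143 to 223 reads per library), coupled to Gs, had 202, 227 and 218 in air and 145, 162 and 175 in hyperoxia with no overlap (log2 fold change −0.43, standard error 0.12, limma adjusted p = 0.025). The calls of Htr1a, Htr3a and Htr4 were lost in some fits with 1 library left out. For Htr1a these were the fits without air library 2 (adjusted p = 0.064) and 3 (0.051). For Htr3a they were the fits without air library 2 (0.074), air library 3 (0.060) and hyperoxia library 1 (0.070), and the call was also lost without the trend (0.054). For Htr4 they were the fits without air library 1 (0.056), 2 (0.10) and 3 (0.079) and hyperoxia library 1 (0.093).

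The other 5 serotonin receptor genes were not called. Htr1d, a Gi-coupled receptor, had only 10.4, 8.14 and 10.3 in air and 13.3, 18.1 and 18.3 in hyperoxia, on 8 to 19 reads per library, with hyperoxia above air in every library (log2 fold change 0.72, standard error 0.32, limma adjusted p = 0.12). Leaving out the mean-variance trend gave a call (adjusted p = 0.026). Htr5b, coupled to Gi in the mouse, had 243, 183 and 187 in air and 169, 168 and 179.5 in hyperoxia, with all hyperoxia values just below those of air (log2 fold change −0.24, standard error 0.14, limma adjusted p = 0.22). Groups that do not overlap without a call were seen in 5 of the 22 receptor genes not called, against 22.9% of all genes not called. The groups of Htr1b, Htr1f and Htr6 overlapped, with log2 fold changes of −0.19, 0.17 and −0.13.

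The dopamine receptors coupled to Gs moved in opposite directions. Drd1 (ENSMUSG00000021478.5, chr13:54051183-54055705, minus strand), the main receptor of this class in the striatum, had 75.3, 48.8 and 58.5 in air and 157, 104 and 102 in hyperoxia, a 1.99-fold higher mean in hyperoxia (log2 fold change 0.98, standard error 0.22, limma adjusted p = 0.010). Hyperoxia library 1 stood above the other two, which still exceeded every air library. Drd5 (ENSMUSG00000039358.3, chr5:38319367-38322518, plus strand), the member of the class known for hippocampal neurons, had 191, 208 and 203 in air and 118, 148 and 161 in hyperoxia (log2 fold change −0.50, standard error 0.14, limma adjusted p = 0.024). All hyperoxia values were lower, library 1 the lowest. Of its exon bases, 48.6% are shared with Gm26560 on the opposite strand, which had 3.77, 7.12 and 8.21 in air and 7.96, 9.06 and 7.72 in hyperoxia. Drd5 was no longer called when air library 1 (adjusted p = 0.064), 2 (0.092) or 3 (0.076) or hyperoxia library 1 (0.082) was left out, while Drd1 was called in every alternative. Of the Gi-coupled genes, Drd2 had 174, 169 and 141 in air and 162, 180.0 and 130.3 in hyperoxia, with mixed groups (log2 fold change −0.04, adjusted p = 0.86), and Drd4, on 6 to 20 reads per library, had a log2 fold change of −0.57 with a 95% interval of −1.55 to 0.41. Of the 8 genes of the striatum list, 3 were called higher (background 14.9%) and 2 lower (background 15.6%). All hyperoxia libraries lay above air in 4 of the 8 (background 22.3%) and below air in 2 (background 23.8%). Ppp1r1b, called lower, encodes the dopamine-regulated phosphatase inhibitor DARPP. It had 764, 727 and 802 in air and 567, 558 and 624 in hyperoxia. Rgs9 of the same list, called higher, had 338, 345 and 363 in air and 502, 462 and 525 in hyperoxia. The summed list was 4141 to 4546 in air and 4361 to 5514 in hyperoxia. The part of striatal RNA in the Drd1 values was not tested.

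**Figure D2:**
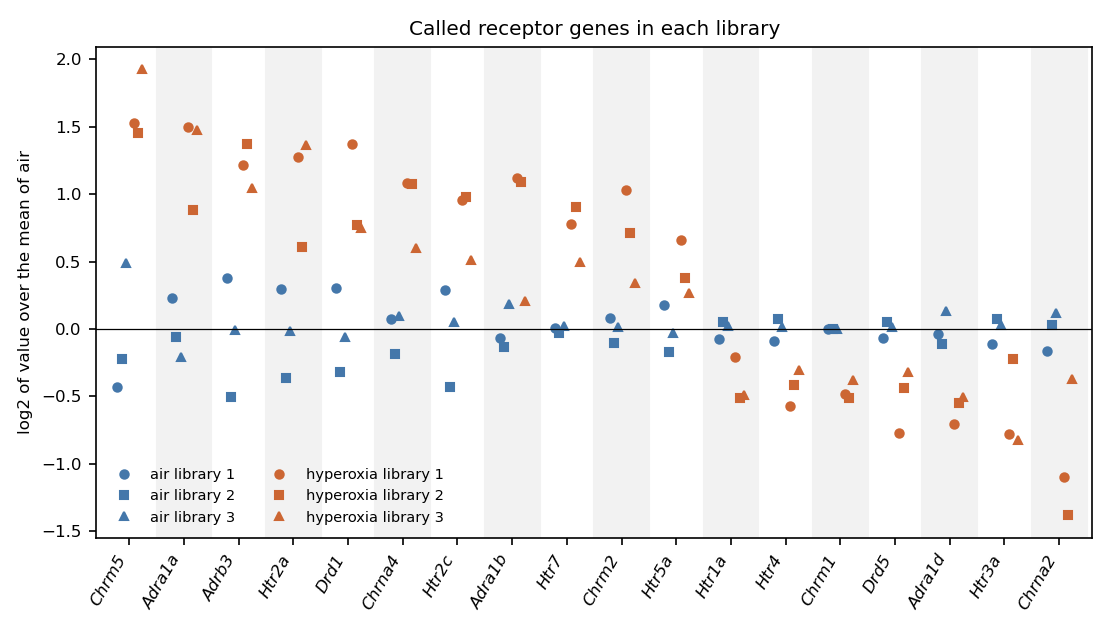
Each of the 18 called receptor genes (x axis) in the 6 libraries, as log2 of the normalized count over the mean of the 3 air libraries (y axis). Symbols give the library number and colours the group. The hyperoxia points of Chrna4 and Adra1b from library 3 lie nearer to air than those of libraries 1 and 2.

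Among the alpha-adrenergic receptors, the Gq-coupled genes were all called, 2 higher and 1 lower (30.5% of all genes tested were called). Adra1a (ENSMUSG00000045875.12, chr14:66635251-66771168, plus strand) had 81.0, 66.1 and 59.5 in air and 194, 127 and 192 in hyperoxia, on 58 to 220 reads per library. Its mean was 2.48-fold higher in hyperoxia with no overlap (log2 fold change 1.29, standard error 0.20, limma adjusted p = 0.0020). Adra1b (ENSMUSG00000050541.14, chr11:43774606-43901210, minus strand) had 113, 108 and 134 in air and 257, 252 and 137 in hyperoxia (log2 fold change 0.81, standard error 0.23, limma adjusted p = 0.026), so that hyperoxia libraries 1 and 2 were far above air and library 3 only just above air library 3. Leaving out hyperoxia library 1 gave a log2 fold change of 0.65 (adjusted p = 0.10), and the call also failed on leaving out air library 1 (0.092) or 2 (0.095) or the trend (0.071). Adra1d (ENSMUSG00000027335.9, chr2:131545850-131562283, minus strand), the most abundant adrenergic gene per length, had 1103, 1045 and 1238 in air and 693, 771 and 794 in hyperoxia. Hyperoxia lay below air in all libraries (log2 fold change −0.58, standard error 0.09, limma adjusted p = 0.0022), and the log2 fold change ranged from −0.64 to −0.51 with each library left out in turn.

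The Gi-coupled alpha-adrenergic genes tested were not called. Adra2c, an inhibitory receptor on nerve endings and cell bodies, had 772, 707 and 783 in air and 598, 692 and 621 in hyperoxia with no overlap (log2 fold change −0.24, standard error 0.09, limma adjusted p = 0.065), and passed the threshold when hyperoxia library 2 was left out (adjusted p = 0.011) or length and GC content were corrected for (0.038). Adra2a, the other main inhibitory receptor of this class in brain, had 724, 623 and 649.9 in air and 1039, 866 and 643 in hyperoxia, with hyperoxia library 3 inside the range of air (log2 fold change 0.33, standard error 0.16, limma adjusted p = 0.14). Without that library its adjusted p was 0.0075. Among the Gs-coupled beta-adrenergic genes, Adrb1 was the most abundant per length, with 563, 479 and 459.9 in air and 435, 472 and 375 in hyperoxia and overlapping groups (log2 fold change −0.23, standard error 0.12, limma adjusted p = 0.17). Leaving out hyperoxia library 2 gave a call (log2 fold change −0.30, adjusted p = 0.049). Adrb3 (ENSMUSG00000031489.15, chr8:27225776-27250616, minus strand), known mainly from fat tissue, had 18.8, 10.2 and 14.4 in air and 33.6, 37.4 and 29.9 in hyperoxia, on 10 to 38 reads per library (log2 fold change 1.20, standard error 0.29, limma adjusted p = 0.013). Without air library 2 its adjusted p was 0.053. Of its annotated exon bases, 24.9% are shared with Gm45470 on the opposite strand, which had 21.7, 15.3 and 18.5 in air and 10.6, 11.3 and 13.5 in hyperoxia, the reverse direction (log2 fold change −0.60, standard error 0.30, limma adjusted p = 0.16).

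Chrm1 (ENSMUSG00000032773.9, chr19:8663789-8683587, plus strand), the Gq-coupled muscarinic receptor that excites pyramidal cells, had the highest level per length of the 43 genes and fell. It had 10222, 10192 and 10210.0 in air and 7327, 7156 and 7875 in hyperoxia, or 10208 ± 14.9 in air and 7453 ± 376 in hyperoxia (SD, n = 3), and the hyperoxia values lay far outside the spread of the 3 air libraries (log2 fold change −0.45, standard error 0.07, limma adjusted p = 0.0017). Chrm5 (ENSMUSG00000074939.3, chr2:112479171-112480769, minus strand), also coupled to Gq and known from dopamine neurons, was at the other end of the scale and rose most. It had 14.1, 16.3 and 26.7 in air and 54.8, 52.1 and 72.4 in hyperoxia, on 15 to 75 reads per library, a 3.14-fold higher mean (log2 fold change 1.64, standard error 0.28, limma adjusted p = 0.0029). Chrm2 (ENSMUSG00000045613.9, chr6:36388084-36528414, plus strand), the Gi-coupled autoreceptor of cholinergic endings, had 208, 183 and 199 in air and 403, 323 and 250.0 in hyperoxia, with hyperoxia library 1 highest and library 3 nearest to air (log2 fold change 0.70, standard error 0.16, limma adjusted p = 0.012). The opposite-strand gene 9330158H04Rik, which shares 2.35% of its exon bases, had 17.9, 14.2 and 8.21 in air and 26.5, 23.8 and 27.0 in hyperoxia. The adjusted p of Chrm2 was 0.054 when air library 2 was left out and 0.056 with the correction for length and GC content. Chrm3 and Chrm4 were not called. Chrm3, the third of the Gq-coupled genes, had 1479, 1597 and 1407 in air and 1892, 1220.5 and 1936 in hyperoxia, and hyperoxia library 2 alone was below air (log2 fold change 0.14, adjusted p = 0.52). Without that library the value was 0.36 (adjusted p = 0.0024). The groups of Chrm4, a Gi-coupled gene, overlapped, with a log2 fold change of 0.13 (95% interval −0.20 to 0.45).

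Of the 11 nicotinic subunit genes, 1 rose, 1 fell and 9 were not called (18.2% called, against 30.5% of all genes tested). Chrna4 (ENSMUSG00000027577.14, chr2:181018380-181043546, minus strand), which encodes the alpha subunit that joins with the product of Chrnb2 in the main high-affinity nicotine receptor of brain, had 1043, 873 and 1057 in air and 2097, 2088 and 1505 in hyperoxia. Its mean was 1.91-fold higher, with no overlap and with hyperoxia library 3 the lowest of its group (log2 fold change 0.92, standard error 0.13, limma adjusted p = 0.0016), the smallest adjusted p among the 40. Chrnb2 (ENSMUSG00000027950.7, chr3:89746195-89764632, minus strand), the partner subunit, had 2110.5, 2105 and 2094 in air and 2201, 2127 and 2066 in hyperoxia, and its groups overlapped (log2 fold change 0.02, standard error 0.07, limma adjusted p = 0.85, 95% interval −0.13 to 0.17). Of its exon bases, 16.3% are shared with Adar on the opposite strand, which had 1976, 1808 and 2145 in air and 2662, 2041 and 2466 in hyperoxia. Chrna2 (ENSMUSG00000022041.10, chr14:66135039-66152948, plus strand), a subunit known from a class of interneurons that reach the outer layer of CA1, had 65.9, 75.3 and 80.1 in air and 34.5, 28.3 and 56.9 in hyperoxia, on 25 to 78 reads per library, with hyperoxia library 3 the nearest to air (log2 fold change −0.93, standard error 0.26, limma adjusted p = 0.023). Leaving out air library 1 (adjusted p = 0.059), 2 (0.082) or 3 (0.080) or hyperoxia library 1 (0.077) ended its call.

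Chrna1 and Chrnb1, subunits of the receptor of muscle, were both low and lower in every hyperoxia library without a call. Chrna1 had 74.4, 85.5 and 70.8 in air and 53.0, 64.5 and 48.3 in hyperoxia (log2 fold change −0.48, standard error 0.18, limma adjusted p = 0.072), and passed when hyperoxia library 2 was left out (adjusted p = 0.025) or with the correction for length and GC content (0.046). Chrnb1 had 63.1, 68.2 and 73.9 in air and 49.5, 54.3 and 51.2 in hyperoxia (log2 fold change −0.40, standard error 0.17, limma adjusted p = 0.098), and passed without the trend (adjusted p = 0.029). Chrna7, which forms the receptor that binds bungarotoxin, had 383, 342 and 419 in air and 544, 386 and 618 in hyperoxia, with hyperoxia library 2 inside the range of air (log2 fold change 0.41, standard error 0.16, limma adjusted p = 0.084). DESeq2 called it (adjusted p = 0.032), as did limma without hyperoxia library 2 (0.0013). The neighbours Chrna5, Chrna3 and Chrnb4, which lie within 67.9 kb at chr9:54980880-55048779, were not called, with log2 fold changes of 0.21, −0.06 and 0.44. Without hyperoxia library 2, Chrna5 was called (log2 fold change 0.38, adjusted p = 0.019). Chrnb3 and Chrna6, which lie within 45.2 kb at chr8:27368711-27413944, had at most 49 and 19 reads per library and log2 fold changes of 0.33 and 0.84.

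By the way the receptors signal, 7 of the 8 Gq-coupled genes tested were called, 5 higher (Adra1a, Adra1b, Chrm5, Htr2a, Htr2c) and 2 lower (Adra1d, Chrm1), with a median log2 fold change of 0.83. Of the 8 Gs-coupled genes, 3 were higher (Adrb3, Drd1, Htr7) and 2 lower (Drd5, Htr4), with a median of 0.02. Of the 12 Gi-coupled genes, 2 were higher (Chrm2, Htr5a) and 1 lower (Htr1a), with a median of 0.04. The 12 ion channel genes gave 1 higher (Chrna4) and 2 lower (Chrna2, Htr3a), with a median of 0.11. Each class thus held genes called in both directions. Over all genes tested, 30.5% were called, 14.9% higher and 15.6% lower. No test compared the classes.

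Genes that fell were for the most part more abundant per length than genes that rose, a difference that was not tested and in which the air values enter both quantities. The 7 genes that fell had 19.5 to 1574 normalized counts per kb of exon in air, with a median of 215, and the 11 that rose had 4.28 to 197, with a median of 32.5. The most abundant gene of each family per length was Chrm1 (1574 in air), Adra1d (594), Htr1a (290.2), Chrnb2 (251), Adrb1 (148) and Drd5 (63.7). Of these 6, Chrm1, Adra1d, Htr1a and Drd5 fell. The per-length level of Drd5 in air was close to that of Drd2 (63.3), and the air libraries of these genes overlapped. In hyperoxia, Chrna4 (378 per kb) took the first place among the nicotinic genes from Chrnb2 (254).

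**Figure D3:**
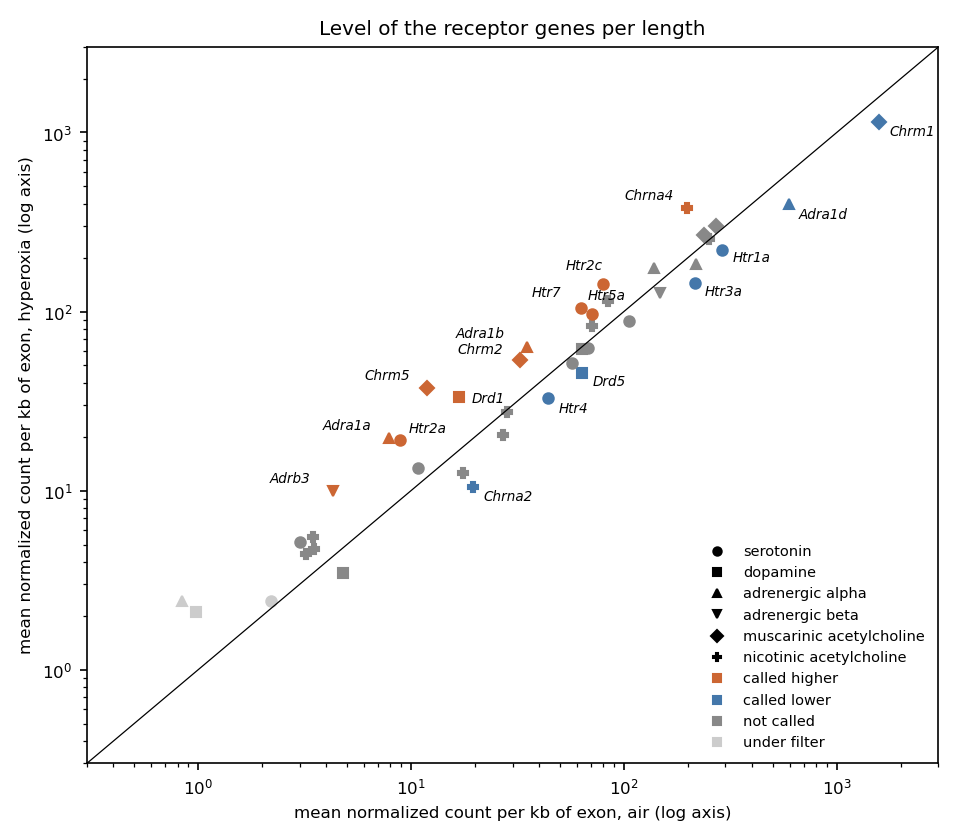
Mean normalized count per kb of annotated exon in air (x axis) and hyperoxia (y axis) for 42 of the 43 receptor genes, both on log axes, with the line of equal levels. Called genes are named. Those below the line include Chrm1 and Adra1d at the upper end, and those above it include Adrb3, Adra1a, Htr2a and Chrm5 at the lower end.

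The summed level per kb of a family did not always follow the gene most abundant in air. Per kb, Chrnb2, that gene for the nicotinic family, had 251 in air and 254 in hyperoxia. Drd5, that gene for the dopamine family, had 63.7 and 45.2. The muscarinic sum was 2128 ± 25.6 in air and 1808 ± 101 in hyperoxia (SD, n = 3), and the alpha-adrenergic sum 995 ± 68.3 and 843 ± 43.0. In both, all hyperoxia libraries were below all air libraries. The nicotinic sum went the other way, from 706 ± 30.2 to 915 ± 57.9, again without overlap. The serotonin sum (1018 ± 17.4 and 984 ± 68.7) and the dopamine sum (150 ± 7.70 and 146 ± 7.66) had overlapping groups. Within these sums the share of Chrna4 went from 27.9% ± 1.75 to 41.2% ± 6.05 of the nicotinic level and that of Adra1b from 3.51% ± 0.21 to 7.50% ± 2.09 of the alpha-adrenergic level. The share of Drd1 went from 11.2% ± 2.34 to 22.9% ± 5.80 of the dopamine level. The share of Adra1d went from 59.7% ± 1.63 to 47.2% ± 4.99, and that of Chrm1 from 73.9% ± 0.81 to 63.6% ± 3.15 of the muscarinic level.

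Ratios of levels per kb between related genes were picked after their values were seen and are given as a description. Chrna4 over Chrnb2 was 0.824, 0.692 and 0.843 in air and 1.59, 1.64 and 1.22 in hyperoxia. Drd1 over Drd5 was 0.342, 0.204 and 0.250 in air and 1.16, 0.610 and 0.551 in hyperoxia, so that only hyperoxia library 1 had more Drd1 than Drd5. Adra1a over Adra1d was 0.0160, 0.0138 and 0.0105 in air and 0.0611, 0.0358 and 0.0526 in hyperoxia, and Adra1d stayed by far the more abundant of the pair. Chrm1 over Chrm3 was 6.66, 6.15 and 6.997 in air and 3.73, 5.65 and 3.92 in hyperoxia. Htr1a over Htr2c was 2.83, 5.08 and 3.55 in air and 1.63, 1.29 and 1.82 in hyperoxia. In these ratios the groups did not overlap, whereas those of Chrna4 over Chrna7 and of Htr2c over Htr2a did. Chrna4 over Chrna7 was 2.44, 2.29 and 2.26 in air and 3.46, 4.85 and 2.19 in hyperoxia. Htr2c over Htr2a was 8.91, 8.59 and 9.42 in air and 7.23, 11.7 and 4.98 in hyperoxia.

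**Figure D4:**
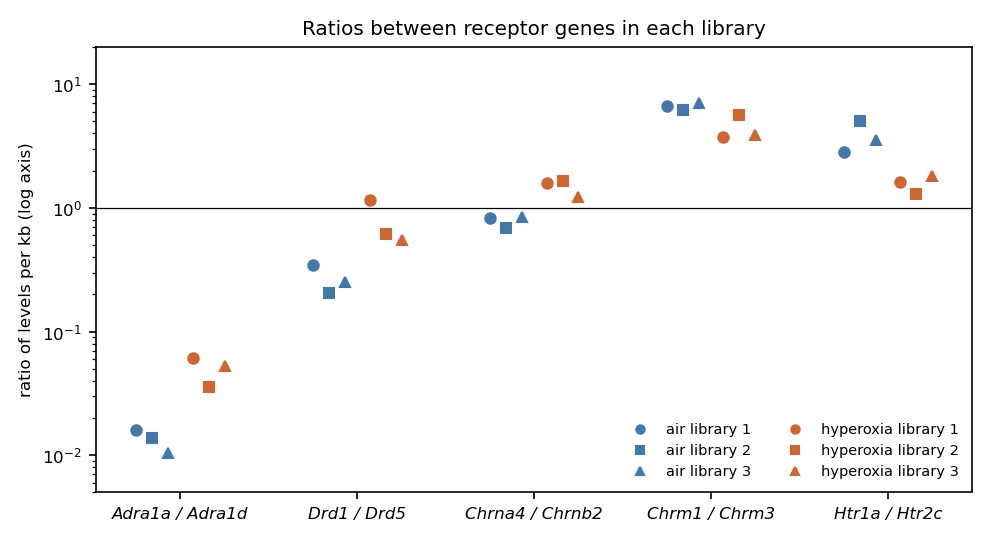
Ratio of levels per kb of exon (y axis, log axis) for 5 pairs of receptor genes (x axis) in the 6 libraries, with a line at equal levels. Chrna4 over Chrnb2 lies below 1 in the 3 air libraries and above 1 in the 3 hyperoxia libraries, while Adra1a stays below 0.1 of Adra1d in all 6.

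The genes around the receptors were read from 8 lists of transmitter and signalling genes. Of their 108 genes tested, 32 were higher and 17 lower. Over all genes tested, 30.5% were called, 14.9% higher and 15.6% lower, and these shares apply to each list below. For acetylcholine, 3 of 6 genes tested rose and none fell, with a list median of 0.40. Bche, an esterase that breaks acetylcholine down, had 111, 114 and 143 in air and 220.1, 219 and 204 in hyperoxia (log2 fold change 0.81, standard error 0.13, limma adjusted p = 0.0027). Slc5a7, the choline transporter of cholinergic endings, had 37.7, 32.6 and 44.1 in air and 58.3, 54.3 and 80.1 in hyperoxia (log2 fold change 0.73, standard error 0.22, limma adjusted p = 0.032), and Slc18a3, the vesicular transporter, had only 2.83, 5.09 and 6.16 in air and 24.8, 12.5 and 11.6 in hyperoxia (log2 fold change 1.57, standard error 0.45, limma adjusted p = 0.026). Chat, which makes acetylcholine, was under the filter, at 2.83, 5.09 and 3.08 in air and 7.07, 10.2 and 2.90 in hyperoxia.

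For the monoamines, 2 of 16 genes tested rose and 4 fell, with a median of −0.15. Slc22a3, a low-affinity monoamine transporter, had 30.1, 39.7 and 16.4 in air and 129.9, 105 and 99.4 in hyperoxia (log2 fold change 1.99, standard error 0.29, limma adjusted p = 0.0017). Slc29a4, a plasma membrane monoamine transporter, had 4259, 3754 and 3701 in air and 2424, 3013 and 2394 in hyperoxia (log2 fold change −0.59, standard error 0.10, limma adjusted p = 0.0032), and all hyperoxia libraries were lower. Dbh, which makes noradrenaline, had 67.8, 63.1 and 52.4 in air and 40.7, 31.7 and 41.5 in hyperoxia (log2 fold change −0.67, standard error 0.20, limma adjusted p = 0.032), and Aldh1a1, an aldehyde dehydrogenase, had 2204, 2773 and 2353 in air and 1828, 1851 and 1872 in hyperoxia (log2 fold change −0.39, standard error 0.09, limma adjusted p = 0.010). The monoamine transporter genes Slc6a2 and Slc6a4 were under the filter.

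Of 9 nicotinic receptor chaperones and Ly6 proteins tested, 2 rose and 2 fell (median 0.22). Lypd6b (0.59, adjusted p = 0.0099) and Lypd6 (0.38, adjusted p = 0.0056) had positive log2 fold changes, and Ly6e (−0.57, adjusted p = 0.0073) and Lynx1 (−0.23, adjusted p = 0.034) negative ones. All of them are Ly6 proteins, and Lynx1 is a known brake on nicotinic receptors. Of 12 G protein alpha subunit genes, 4 rose, among them Gna13 (0.71, adjusted p = 4.1e-04) and Gnai1 (0.63, adjusted p = 4.7e-04), and 2 fell (median 0.10). Of 12 Gq effector genes, 5 rose and none fell (median 0.24), among them the calcium release channel genes Itpr3 (0.75, adjusted p = 0.0042) and Itpr2 (0.39, adjusted p = 0.019), Plcb4 (0.46, adjusted p = 0.0061) and the channel gene Kcnq3 (0.51, adjusted p = 0.025), whose current muscarinic receptors close. Of 28 genes of the cyclic AMP list, 8 rose and 5 fell (median 0.14), with Pde4d, a phosphodiesterase, at 443, 430.4 and 472 in air and 1162, 619 and 1011 in hyperoxia (adjusted p = 0.0051) and Adcy8, an adenylyl cyclase, with a log2 fold change of 0.89, adjusted p = 0.0017. None of the 4 G protein gated potassium channel genes was called by limma (median 0.13), with 1 at an unadjusted p under 0.05, none called by edgeR and 1 by DESeq2. Of 21 receptor kinase, arrestin and RGS genes, 8 rose and 4 fell (median 0.09). Grk5, a kinase that switches receptors off, was higher (0.74, adjusted p = 0.0026), and Arrb2 (−0.64, adjusted p = 0.0012) and Rgs14 (−0.86, adjusted p = 4.5e-04) were lower.

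Cell type and region markers also moved between the groups, and over all genes tested 14.9% were called higher and 15.6% lower. The summed thalamus list was 5487 to 5583 in air and 7759, 9138 and 8168 in hyperoxia libraries 1, 2 and 3, so lowest in library 1. Of its 8 genes, 4 were called higher, none lower, and none was at 0. Slc17a6, a vesicular glutamate transporter of thalamus, had 630.0, 555 and 593 in air and 2037, 2186 and 1675 in hyperoxia, and Ramp3 126, 98.7 and 104 in air and 347, 453 and 141 in hyperoxia, while Synpo2 was high in hyperoxia library 2 alone (548, against 166 to 192 in the others). Of the 4 thalamus genes called higher, Slc17a6, Rora and Ramp3 had their lowest hyperoxia value in library 3 and Tcf7l2 in library 1. Of the 11 receptor genes called higher, 8 were lowest in library 3 and the other 3 (Adra1a, Chrm5, Htr2a) in library 2. No such count was made over all genes called higher, so these orders have no background beside them. The summed list of subiculum and neocortex had 12459 to 13971 in air and 17448 to 19960 in hyperoxia (6 of 10 called higher, none lower, none at 0). The Cajal-Retzius list had 4965 to 5468 in air and 6331 to 7569 in hyperoxia (2 of 7 higher).

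The dentate granule cell list was lower in hyperoxia. Its sum was 20954 to 21551 in air and 12283 to 18191 in hyperoxia, with 7 of 8 genes called lower, among them C1ql2 (−1.24) and Plk5 (−1.28). Of the CA3 list 3 of 7 genes were lower, of the CA2 list 1 was higher and 1 lower of 6, and of the CA1 list 3 of 7 were higher. The oligodendrocyte list was lower in 8 of 9 genes, with sums of 222677 to 339376 in air and 151339 to 184524 in hyperoxia. The astrocyte list had 5 of 10 genes higher and 1 lower, and the GABAergic interneuron list 1 of 14 higher and 1 lower, Vip (0.46) and Pvalb (−0.88). Hippocampal markers were thus present in every library, and the part of thalamus, cortex, dentate or glial RNA in the receptor changes was not tested.

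**Figure D5:**
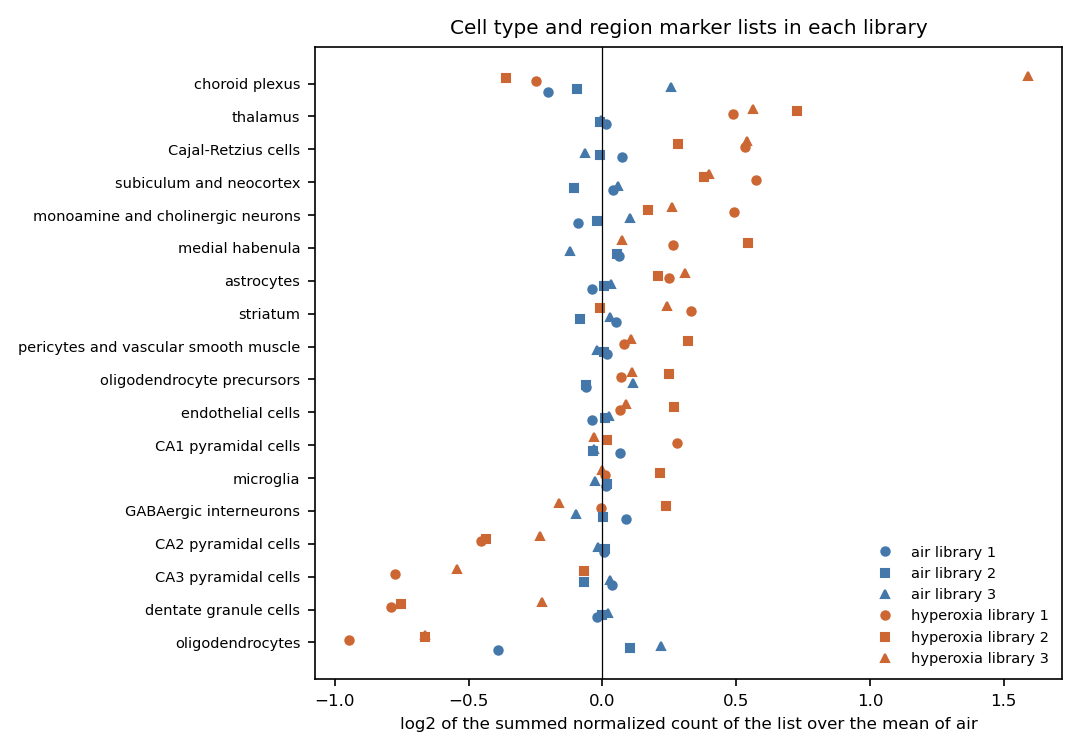
Summed normalized counts of 18 cell type and region marker lists (y axis) in the 6 libraries, as log2 over the mean of the 3 air libraries (x axis). Thalamus, subiculum and neocortex lie to the right in all 3 hyperoxia libraries, dentate granule cells and oligodendrocytes to the left, and the choroid plexus list is far to the right in hyperoxia library 3 only.

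Of the choroid plexus list 1 of 11 genes tested was called, of the medial habenula list 3 were higher and 2 lower of 8, of the oligodendrocyte precursor list 2 of 7 higher, of the microglia list 2 of 10 higher, of the endothelial list 4 higher and 2 lower of 8, and of the pericyte and smooth muscle list 1 of 8 higher. Of 6 genes tested that mark brainstem monoamine and basal forebrain cholinergic neurons, 2 were higher and 1 lower. Pairs of libraries of 1 group were not repeats of each other, since their chi-square per gene was 6.54 to 10.5 in air and 15.1 to 47.2 in hyperoxia, the largest values being those of hyperoxia library 2. With 3 against 3, an exact permutation test of 1 gene cannot give a two-sided p below 0.1, so no gene could be called by it alone.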

How the data were processed

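RNA of 6 left hippocampi was read as strand-specific, polyA-selected libraries, 1 per mouse per the labels. The authors deposited, per gene and library, a signal named as the DESeq2-normalized count, in which 1 size factor divides the reads of a library. The submitters' processing notes name FastQC, STAR 2.5.3a, HTSeq and DESeq2. Genome build, annotation and use of the strand in counting were not given in the sources used here. Fold changes, p-values and mean scores of the authors' own comparison, also deposited, were left aside. Columns give the group and a number that is not an animal number.

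In each library 100% of the deposited values lay within 0.01 of whole multiples of 1 read, so reads were recovered. Since the values are not raw counts, log2(deposited value + 1) was tested in R 4.3.3 by limma 3.58.1 (trended prior variance, Benjamini-Hochberg adjustment) on the 17778 genes whose mean reached 10. This scale understates changes of low genes. The test was checked on simulated counts, drawn independently per gene and library with few genes changed. They hold no library differences shared between genes, so the check does not vouch for the calls made here. Other settings tried were pseudocount 0.5 or 5, no filter or a minimum mean of 50, quantile and TMM scaling, no trend, edgeR 4.0.16 and DESeq2 1.42.0 on recovered reads, correction for length and GC content (mgcv 1.9.3, 17735 genes), each library left out, and, chosen after seeing the data, sex as a covariate. Positions, exon lengths and overlaps came from GENCODE M21 on GRCm38 (99.7% of identifiers found) and promoters from RefSeq. Tables were handled with Python 3.11.15 and pandas 2.3.3.

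The receptor genes and all lists were chosen with earlier results of these data known, so the counts are descriptions. Values in every library are given for called genes, for genes not called whose groups do not overlap and for the most abundant gene of each family per length, with Adra2a, Chrm3, Chrna7 and Drd2 added after their values were seen. From each list at most 4 called genes are named, by size of change, and genes that moved with 1 library. Chat, Ppp1r1b, Rgs9, Slc6a2 and Slc6a4 were also added. Of 18 called genes, 5 share exon bases with a gene on the opposite strand (Adra1d, Adrb3, Chrm1, Chrm2, Drd5). If counting ignored the strand, such reads cannot be told apart. The values of 1 receptor gene that was not called, the summed level of its family and the values of 1 listed gene are not reported here.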

Additional observations from a re-analysis of the deposited data

How the results depend on the processing

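Of the 11 receptor genes higher in hyperoxia and the 7 lower, the counts ranged from 7 to 14 and from 2 to 10 with each library left out in turn. The count of higher genes was 7 without air library 2. The count of lower genes was 4 without air library 1, 3 without hyperoxia library 1 and 2 when either of the other air libraries was left out. The 32 higher and 17 lower genes of the pathway lists ranged from 21 to 40 and from 11 to 22, with 21 higher without air library 2 and 11 lower without air library 1, air library 3 or hyperoxia library 1. Calls over all genes were 5425 in the main test and 3048, 3087 and 3378 without air library 1, air library 2 and hyperoxia library 1, and 7756 without hyperoxia library 2. Of the 18 called receptor genes, 9 were called under every alternative that tested them: Adra1a, Adra1d, Chrm1, Chrm5, Chrna4, Drd1, Htr2a, Htr2c and Htr7. Chrnb2, not called, ranged from −0.0049 to 0.041 with each library left out and was −0.084 after the length and GC correction, and the cause was not tested. With sex as a covariate the same counts, 11 and 7, were found. Of 422 values of 25 named genes under the 17 alternatives, 383 kept their direction and side of the threshold, 30 lost the call and 7 gained it. No paired analysis was possible because the labels number the animals from 1 to 6 and the columns carry only a group and a number of their own. Genes under about 100 reads per library such as Adrb3, Chrm5, Chrna2 and Htr1d carry counting error beside the spread of 3 mice.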
